A study of Mus musculus with 10 samples.

Results

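Gas1 and 8 genes of the hedgehog pathway were described across lists of peaks of N6-methyladenosine (m6A), the methyl mark that is most common inside messenger RNA. The 9 genes were Gas1, Cdon, Boc, Ptch1, Smo, Gli1, Gli2, Gli3 and Sufu. Of these, 3 were among the 4112 genes with a peak in the series, and the other 6 had none. The set was chosen by measured values in part: Gas1 was selected on the score of one of its peaks under rhein, which ranked 2 of 3069, and the other 8 genes were taken because they belong to its pathway. The rhein scores and ranks of Gas1 are therefore given as a description, without a test. A peak was counted for a gene when both of its ends lay in exons of 1 transcript of that gene, on the strand of the gene. By this rule the 9 genes held 32 of the 13965 peaks in the 4 distinct lists.

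The cells were 3T3-L1, a mouse fibroblast line that turns into fat cells after a hormone cocktail. MeRIP-seq, which sequences RNA fragments bound by an m6A antibody (the IP) beside the unselected fragments (the input), was done with 1 IP and 1 input in each of 5 conditions. DMSO Pre were preadipocytes, DMSO MCE were cells in mitotic clonal expansion (the round of divisions that follows the cocktail), DMSO Diff were labelled as mature adipocytes, and rhein MCE and rhein Diff were given 20 µM rhein, a plant anthraquinone, from day 0 to day 3. The labels do not say which genotype or subclone of the line was used. All conditions share the line and the antibody, and rhein was not applied at the Pre stage. With 1 library pair per condition there was no measure of the spread between cultures, so no difference between conditions was tested.

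The hedgehog pathway passes a signal from secreted ligands to the nucleus. Ptch1, the receptor, holds Smo in check until a ligand binds, and Smo then releases the Gli transcription factors from Sufu. Gas1, Cdon and Boc are cell surface proteins that bind hedgehog ligands and serve as co-receptors beside Ptch1. Gas1 was named as a growth arrest gene, because its RNA rises in fibroblasts that stop dividing, and hedgehog signalling is known to oppose fat cell formation.

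Each list gave 1 value per peak under a fold-change header, called the score here. It was read as an adjusted p-value on a negative log2 scale. On that scale the lowest scores of the lists equal 0.04997 to 0.0549, near the default limit of 0.05. This reading is an inference from the values, and each adjusted p given below rests on it. On this reading the score ranks peaks within a list and is not an enrichment. It grows with the reads on a peak. Scores of different lists are compared here only through ranks and through a fixed limit, an adjusted p below 1e-10 (a score above 33.2). That limit depends on read depth as the score does, and depth per library is not known here. The number of peaks was 2824 for DMSO Pre, 5128 for DMSO MCE, 2944 for DMSO Diff, 3069 for rhein MCE and 3071 for rhein Diff. The last pair had 3067 spans in common, so that both rhein lists were counted as 1 and rhein values are those of rhein MCE. The sources used here do not say why these lists are nearly the same. The stage of the cells behind them therefore cannot be told, and comparisons with DMSO MCE or DMSO Diff follow the labels only. No list, that of the cells labelled as mature adipocytes included, held a peak in any of 7 adipocyte markers. Of 7 markers of preadipocytes or fibroblasts, DMSO Pre held peaks in 5, DMSO MCE in 5, DMSO Diff in 4 and rhein in 2 (Pdgfra and Thy1). Of all protein-coding genes, 6.89%, 12.5%, 6.69% and 7.45% had a peak in these lists. At such shares 0 of 7 is not unusual, and no cell type is read from these counts. The absence of a peak does not show that an RNA is absent or unmethylated.

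Gas1 lies on chromosome 13 of mm10 (GRCm38), at chr13:60174405-60177365 on the minus strand. GENCODE M21 gives it 1 exon of 2961 bases, with a 5′ UTR of 547 bases, a coding sequence of 1032 bases and a 3′ UTR of 1382 bases. RefSeq starts the transcript further upstream, at 60177535, and starts the coding sequence at transcript base 425 in place of base 548. Positions below are counted in bases from the 5′ end of the GENCODE transcript. The letters GGAC, the core of the motif at which the m6A methyltransferase acts, occurred 18 times in it.

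The coding sequences that carried the peaks are printed from 5′ to 3′ on the strand of the RNA, read from the RefSeq copy of GRCm38, with GGAC in capitals. The first is the coding part of the highest rhein peak, at chr13:60176580-60176818, and the other two are the longest coding stretches that lay under peaks of all 4 distinct lists, at chr13:60176330-60176404 and chr13:60175930-60176154. 
Gas1 coding bases 548 to 786: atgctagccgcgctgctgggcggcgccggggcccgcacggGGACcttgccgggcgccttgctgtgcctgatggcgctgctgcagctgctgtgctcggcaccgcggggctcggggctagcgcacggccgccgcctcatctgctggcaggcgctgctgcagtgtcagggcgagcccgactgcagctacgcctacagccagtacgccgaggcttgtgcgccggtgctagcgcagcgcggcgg
Gas1 coding bases 962 to 1036: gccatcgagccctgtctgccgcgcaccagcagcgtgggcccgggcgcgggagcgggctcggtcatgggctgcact
Gas1 coding bases 1212 to 1436: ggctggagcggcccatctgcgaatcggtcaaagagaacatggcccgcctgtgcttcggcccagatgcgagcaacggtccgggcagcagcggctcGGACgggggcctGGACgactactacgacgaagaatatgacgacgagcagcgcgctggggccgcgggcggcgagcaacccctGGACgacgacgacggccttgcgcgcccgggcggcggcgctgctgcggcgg
The third stretch held 3 GGAC sites, the coding part of the rhein peak held 1 and the stretch of 75 bases held 0. All 3 stretches were rich in G and C, which made up 74.5%, 76.0% and 71.6% of their bases.

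Outside the GENCODE coding sequence, only short windows around GGAC sites are shown. The sites at chr13:60176922-60176941 and chr13:60176892-60176911 precede the GENCODE start codon, and those at chr13:60175651-60175670 and chr13:60175537-60175556 follow the stop codon. These 4 sites were under peaks of all 4 distinct lists.
Gas1 bases 425 to 444: atggatgaGGACgcccatgc
Gas1 bases 455 to 474: cggaactcGGACaaactttt
Gas1 bases 1696 to 1715: tcctgggtGGACagggccca
Gas1 bases 1810 to 1829: agaattcgGGACaccctgca
The window from 425 begins with the start codon that RefSeq uses. A further window, at chr13:60177019-60177044, holds a pair of GGAC sites at the gap between the 5′ peaks of the DMSO lists. Both lie under the highest rhein peak.
Gas1 bases 322 to 347: cgtctaccGGACccGGACctgcgtcg
The first site of this pair lies in the gap. The second begins at base 336, and the nearest peak of each DMSO list begins at base 337, so those peaks cut through it.

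Gas1 carried 23 of the 32 peaks of the 9 genes, of which DMSO Pre gave 7, DMSO MCE 5, DMSO Diff 6 and rhein 5. It was the only member with a peak in all 4 distinct lists. In DMSO Pre its peaks covered bases 37 to 311, 337 to 561, 837 to 1436, 1462 to 1511, 1562 to 2036, 2312 to 2411 and 2487 to 2561. The highest scores in that list were 64.5 for the peak that crossed the stop codon into the 3′ UTR, ranked 21, and 61.7 for the peak from 837 in the coding sequence, ranked 25. The other 5 scored between 11.1 and 19.3.

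In DMSO MCE the Gas1 peaks were fewer and shorter, at 187 to 286, 337 to 661, 812 to 1061, 1212 to 1486 and 1637 to 1886. The highest score was 52.8, rank 41 of 5128, for the peak from 1212 at the end of the coding sequence. The peak from 337 followed with 36.0 and rank 85, the 3′ UTR peak from 1637 with 34.9 and rank 89. Thus the 3 highest Gas1 peaks of this list had their midpoints in 3 different regions of the GENCODE transcript. By RefSeq the midpoint of the peak from 337 lies in the coding sequence.

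In DMSO Diff the Gas1 peaks were at 37 to 286, 337 to 761, 887 to 1161, 1212 to 2011, 2287 to 2361 and 2637 to 2711. The peak from 1212 was 800 bases long, ran across the stop codon and had the highest score, 57.6, with rank 43 of 2944. The pair of peaks at the 5′ end scored 20.3 and 20.2, and the pair of short peaks near the 3′ end scored 8.07 and 7.75. Hence in all 3 DMSO lists the highest Gas1 peak began after the GENCODE start codon.

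Under rhein the order along the transcript was different. The 5 peaks were at 1 to 786, 812 to 936, 962 to 1036, 1212 to 1511 and 1562 to 2061. The highest was the peak at the 5′ end, with a score of 279 and rank 2 of 3069, behind a peak in Cebpb, a transcription factor of early fat cell formation, with a score of 488. The coding peaks scored 114 (rank 14), 93.8 (rank 18) and 72.6 (rank 35), and the 3′ UTR peak scored 41.6 (rank 110). All 5 rhein peaks had an adjusted p below 1e-10, against 2 of 7 for DMSO Pre, 3 of 5 for DMSO MCE and 1 of 6 for DMSO Diff. Over all peaks of each list this limit was passed by 4.92% under rhein, 2.41% for DMSO Pre, 1.87% for DMSO MCE and 3.46% for DMSO Diff.

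**Figure D1:**
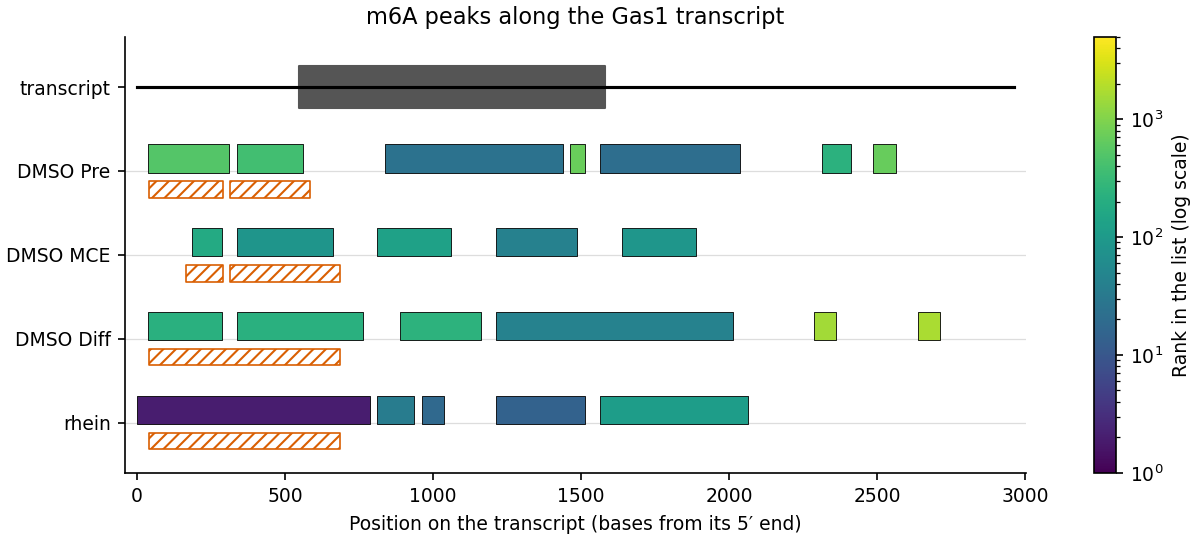
Peaks along the Gas1 transcript in the 4 distinct lists, with the position in bases from the 5′ end on the x axis and the rank of the peak in its list as colour on a log scale. The grey block is the coding sequence and the hatched boxes mark peaks that the lists give on the opposite strand, in Gm48488. The darkest box is the rhein peak from base 1 to 786, which has rank 2.

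By rank, the lists lay further apart at the 5′ end than in the rest of the transcript. Among the peaks that began in the 5′ UTR, the highest had rank 382 for DMSO Pre, 85 for DMSO MCE, 220 for DMSO Diff and 2 for rhein. Among the peaks that began after the start codon, the highest had ranks 21, 41, 43 and 14. The rhein peak thus ranked above those of the 3 DMSO lists at both places. These are single lists, and the rhein values chose the gene.

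The 5′ peaks also differed in extent. Under rhein 1 peak of 786 bases took in the whole 5′ UTR and part of the coding sequence, whereas each DMSO list gave a pair of peaks there. The rhein peak began at the first base of the GENCODE exon, which is shorter at this end than the RefSeq exon. By length it was the sixth peak of the rhein list, and the longest Gas1 peak ranked 18 for DMSO Pre, 174 for DMSO MCE and 16 for DMSO Diff.

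Measured in bases, 1800 of the 2961 bases of Gas1 were under peaks for DMSO Pre, 1200 for DMSO MCE, 1900 for DMSO Diff and 1786 for rhein, which is 60.8%, 40.5%, 64.2% and 60.3% of the transcript. DMSO MCE was the list with the least covered length, although it was the longest list. In the 5′ UTR the covered share was 88.8% for DMSO Pre, 56.9% for DMSO MCE, 84.3% for DMSO Diff and 100.0% for rhein. In the coding sequence it was 66.1%, 61.9%, 83.0% and 73.4%, and in the 3′ UTR 45.7%, 18.1%, 42.1% and 34.9%. Rhein had the highest share of the 4 lists in the 5′ UTR, and DMSO Diff in the coding sequence.

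**Figure D2:**
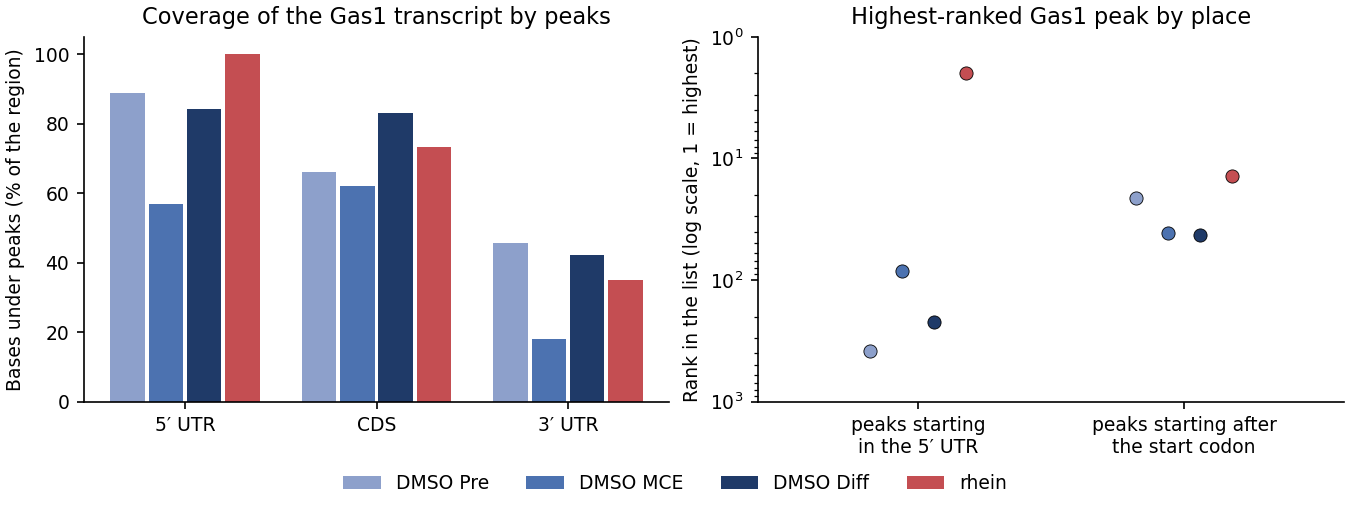
Left, the share of each region of the Gas1 transcript that lay under peaks, in percent, for each distinct list. Right, the rank in its list, on a log axis with 1 at the top, of the highest Gas1 peak that began in the 5′ UTR and of the highest that began after the start codon. The rhein list stands at 100.0% of the 5′ UTR and at rank 2 there, and the DMSO lists at ranks from 85 to 382.

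Most of the Gas1 bases under rhein peaks were also under DMSO peaks. The bases under rhein peaks and no DMSO peak numbered 111, in 4 runs of at most 36 bases at the edges and gaps of DMSO peaks. The bases under at least 1 DMSO peak and no rhein peak numbered 525, among them 3 runs of 125, 75 and 75 bases in the 3′ UTR, downstream of the last rhein peak. A core of 950 bases, 32.1% of the transcript, was under peaks of all 4 distinct lists, and 650 bases were under no peak. Of the bases covered in DMSO MCE, 95.8% were covered under rhein, and of those covered under rhein 64.4% were covered in DMSO MCE. Of those covered in DMSO Diff, 81.6% were covered under rhein, and 86.8% the other way round.

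Over all pairs of distinct lists, the bases that both lists covered were between 53.8% and 72.6% of the bases that either covered. The median over all genes with peaks in both lists was between 33.3% and 43.5%, over 937 to 1372 genes. The Gas1 value was above the median in each of the 6 pairs, and between 278 and 388 genes were above Gas1. Peaks covered between 40.5% and 64.2% of the Gas1 transcript in each list. Lists that each cover so much of 1 transcript share bases through coverage alone. The difference from the median is therefore not read as a sign of steadier peaks.

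The move of the highest peak to the 5′ UTR was not particular to Gas1. Among 531 genes with peaks on coding transcripts in all 4 distinct lists, the highest peak had its midpoint in the 5′ UTR under rhein and in no DMSO list for 16, or 3.01%, Gas1 among them. Gas1 is in this count through the peak by which it was selected. The pattern with the 5′ UTR in every DMSO list and another region under rhein was found for 2 genes, or 0.377%. It asks for the 5′ UTR in 3 lists at once and the first pattern in only 1, so the 2 counts are not like for like. Genes with the 5′ UTR in 1 DMSO list only were not counted, so whether 3.01% is low or high cannot be told. Among the peaks with an adjusted p below 1e-10, the share with the midpoint in the 5′ UTR was 26.2% under rhein (32 of 122, Wilson 95% interval 19.2 to 34.7). It was 4.26% for DMSO Pre (2 of 47, 1.17 to 14.2), 4.69% for DMSO MCE (3 of 64, 1.61 to 12.9) and 2.70% for DMSO Diff (2 of 74, 0.744 to 9.33). Over all peaks on coding transcripts the lists lay closer together, at 7.56% under rhein (6.60 to 8.65), 5.53% for DMSO Pre (4.68 to 6.51), 7.32% for DMSO MCE (6.59 to 8.12) and 5.97% for DMSO Diff (5.09 to 6.99). The intervals cover counting error only, since each list is 1 library pair, and the part of this difference in the Gas1 result was not tested.

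Gas1 stood near the top of the lists by other measures as well. It ranked 13 of 1729 genes by number of peaks for DMSO Pre, 56 of 2965 for DMSO MCE, 24 of 1714 for DMSO Diff and 41 of 1851 for rhein, while the median gene had 1 peak. By covered bases it ranked 6, 32, 12 and 12, against a median of 175 bases in every list. By its highest score it ranked 17, 32, 31 and 2. By number of peaks and by covered bases Gas1 thus did not stand higher under rhein than in DMSO Pre, whereas by its highest score and by its longest peak it did. The last 2 measures both rest on the rhein peak by which Gas1 was selected, so they give no separate support.

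The opposite strand of the 5′ part of Gas1 also carried peaks. Gm48488, a long noncoding RNA gene at chr13:60176682-60182862 on the plus strand, faces Gas1 over 589 exonic bases. DMSO Pre gave it 2 peaks (scores 8.34 and 13.3), DMSO MCE 2 (22.7 and 33.8), DMSO Diff 1 (9.37) and rhein 1 (26.8). Between 74.3% and 100.0% of their exonic bases faced Gas1 peaks of the same list. In each list the highest of these peaks scored below the highest 5′ peak of Gas1. Under rhein it ranked 206 while the Gas1 peak ranked 2, and in DMSO Diff 1089 while the Gas1 peak ranked 220. In DMSO MCE the ranks were close, at 176 and 95 for Gm48488 and 175 and 85 for the 5′ peaks of Gas1. In DMSO Pre 1 peak of each gene had a score of 13.3 and rank 506.

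Over each whole list, peaks that faced an exon of the other strand over their full length faced a peak there in 51.1% of cases for DMSO Pre (46 of 90), 76.6% for DMSO MCE (134 of 175), 70.3% for DMSO Diff (64 of 91) and 79.2% for rhein (103 of 130). Whether reads were counted by strand is not given in the sources used here. If they were not, reads of Gas1 and of Gm48488 in this stretch cannot be told apart. Gm48488 begins opposite base 684 of Gas1, and the Gas1 peaks beyond that base do not face it.

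Among the receptors and co-receptors, Cdon, Boc and Ptch1 had no peak in any list. Cdon lies at chr9:35421128-35507652, Boc at chr16:44485049-44558897 and Ptch1 at chr13:63508328-63573598, and their transcripts of 7503, 4451 and 7725 bases are longer than that of Gas1. Gas1 was thus the only surface co-receptor of the 3 with a listed peak. The lists hold no RNA levels, so that low RNA and low methylation cannot be told apart for these genes.

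Smo, the membrane protein that carries the signal into the cell, lies at chr6:29735503-29761365 on the plus strand, with a coding sequence of 2382 bases in a transcript of 3779. DMSO Pre held 1 Smo peak, DMSO MCE 2, and DMSO Diff and rhein none. The DMSO Pre peak, bases 2684 to 2758, had a score of 13.6 and rank 486 of 2824. It crossed the stop codon, and its GGAC site stands just before that codon. The DMSO MCE peaks, bases 2309 to 2483 and 2509 to 2608 in the coding sequence, scored 8.43 (rank 1489 of 5128) and 6.53 (rank 3509).

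All 3 Smo peaks fell within a stretch of the transcript from 2309 to 2758, around the stop codon, and none overlapped a peak of the other list. The lists printed them under Ahcyl2, the neighbouring gene, so a search by symbol finds no Smo peak. The sequences show the GGAC site at the stop codon, at chr6:29760268-29760287, and both DMSO MCE peaks, at chr6:29759895-29760069 and chr6:29760095-29760194.
Smo bases 2682 to 2701, DMSO Pre: gcagactcGGACttctgagc
Smo bases 2309 to 2483, DMSO MCE: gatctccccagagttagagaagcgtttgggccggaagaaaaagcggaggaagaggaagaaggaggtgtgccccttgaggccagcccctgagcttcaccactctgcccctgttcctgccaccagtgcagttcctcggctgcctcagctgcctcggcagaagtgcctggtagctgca
Smo bases 2509 to 2608, DMSO MCE: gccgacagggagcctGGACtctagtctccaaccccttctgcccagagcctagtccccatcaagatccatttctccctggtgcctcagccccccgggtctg
The higher of the DMSO MCE peaks held no GGAC, and the lower held 1.

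Of the Gli factors, which carry the signal to target genes, only Gli2 had peaks. Gli2, the main activator of the family, lies at chr1:118834132-119053619 on the minus strand, with a transcript of 6637 bases and a 3′ UTR of 1653. It had 5 peaks in DMSO MCE and 1 under rhein, and none in DMSO Pre or DMSO Diff. The DMSO MCE peaks, at 5113 to 5337, 5563 to 5687, 5713 to 5787, 5938 to 6037 and 6088 to 6137, scored 6.68, 6.98, 6.12, 7.23 and 6.75, with ranks between 2488 and 3943 of 5128. The rhein peak, at 6038 to 6112, scored 5.55 with rank 2838 of 3069. All 6 lay in the 3′ UTR and in the lower part of their lists, apart from the peak from 5938, whose rank was 48.5% of its list.

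The rhein peak of Gli2 shared bases with 1 of the 5 DMSO MCE peaks, the one from 6088, and began where the peak from 5938 ended. The lists named these peaks by the microRNA gene Mir6346. The windows of GGAC sites under Gli2 peaks are shown because each of the 5 peaks that held the letters held them once, at chr1:118835547-118835566, chr1:118835161-118835180, chr1:118835002-118835021 and chr1:118834771-118834790 in DMSO MCE and at chr1:118834712-118834731 under rhein.
Gli2 bases 5203 to 5222, DMSO MCE: gggggaggGGACacccaaag
Gli2 bases 5589 to 5608, DMSO MCE: gtagagtgGGACcagcagat
Gli2 bases 5748 to 5767, DMSO MCE: gttgctgtGGACtaggaata
Gli2 bases 5979 to 5998, DMSO MCE: tttggcatGGACcagtgatg
Gli2 bases 6038 to 6057, rhein: tgattcttGGACtttgagga
The site under the rhein peak lies outside the DMSO MCE peaks.

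**Figure D3:**
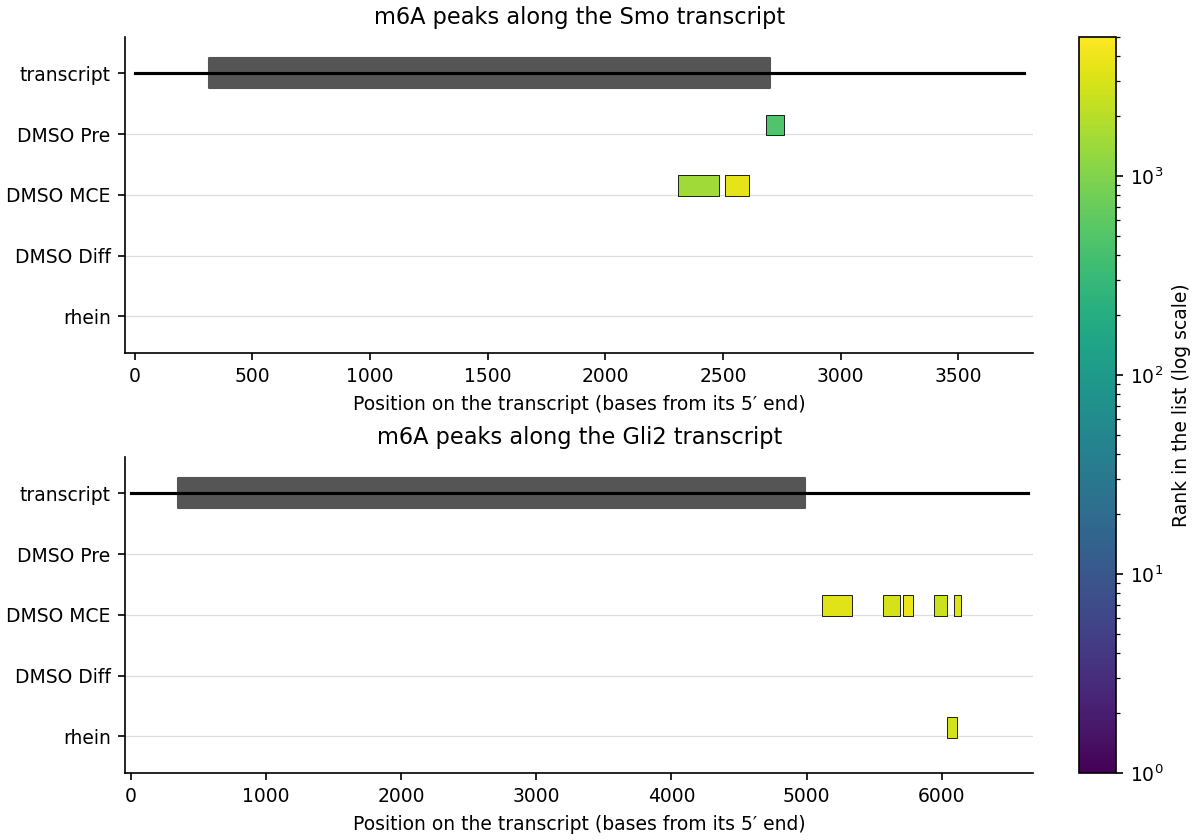
Peaks along the Smo and Gli2 transcripts in the 4 distinct lists, with the position in bases from the 5′ end on the x axis, the coding sequence as a grey block and the rank in the list as colour on the log scale used for Gas1. Smo has peaks in DMSO Pre and DMSO MCE, the highest at rank 486, and Gli2 in DMSO MCE and under rhein, the highest at rank 2488.

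Gli1, which is both a Gli factor and a target of the pathway, had no peak in any list, and neither had Gli3, the main repressor of the family, or Sufu, which holds Gli proteins in the cytoplasm. Gli1 lies at chr10:127329882-127341974, Gli3 at chr13:15463235-15730026 and Sufu at chr19:46396896-46488804. The symbol Gli3 was printed for 1 peak in DMSO Diff, at chr13:15118632-15118756, and for 1 under rhein, at chr13:15118632-15118681. Both lay in Gm9512, a gene outside Gli3, and were not counted. In the same way the symbol Gas1 was printed for the peaks of Gm48488, so that DMSO Pre printed it 9 times, DMSO MCE 7, DMSO Diff 7 and rhein 6.

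Counted by member, DMSO Pre held peaks for 2 of 9 genes, DMSO MCE for 3, DMSO Diff for 1 and rhein for 2. Of 21938 protein-coding genes, 6.89%, 12.5%, 6.69% and 7.45% had a peak in these lists. Over the 4 distinct lists 3 of 9 members had a peak, against 16.6% of all protein-coding genes, and without Gas1, which was chosen for its peak, 2 of 8. With an adjusted p below 1e-10, Gas1 was the only member in each list, where 0.182%, 0.21%, 0.246% and 0.424% of protein-coding genes had such a peak. With so few members, nothing is read from these shares.

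The 3 genes with peaks differed in the strength of the call. The 23 Gas1 peaks had a median rank of 3.41% of their list, and 17 of them were in the upper 10%. Among these 17 is the rhein peak by which Gas1 was selected, and the same place can count once in each list. The contrast with Smo and Gli2 is therefore a description only. The 9 peaks of Smo and Gli2 had a median rank of 63.1%, and none was in the upper 10%. Gas1 peaks had a median exonic length of 250 bases and those of Smo and Gli2 100 bases, beside 125 bases for all peaks on coding transcripts.

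**Figure D4:**
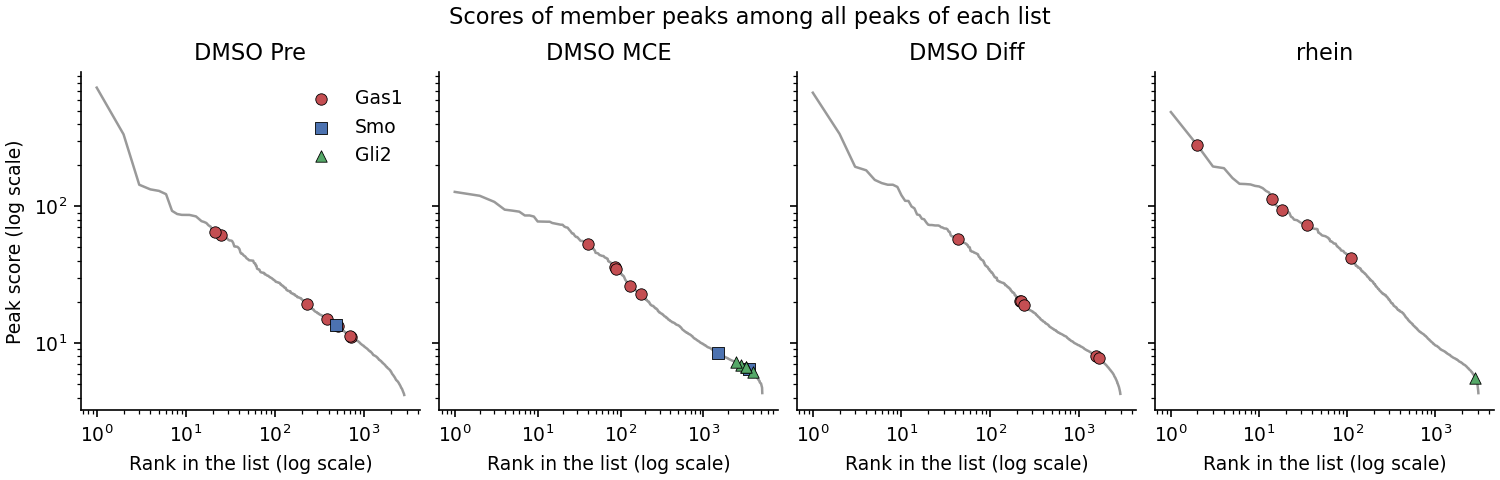
Score against rank for every peak of each distinct list (grey line, both axes on a log scale), with the peaks of Gas1, Smo and Gli2 marked. The Gas1 points lie toward the upper left, up to rank 2 under rhein, and the Smo and Gli2 points lie at ranks from 486 in DMSO Pre to 3943 in DMSO MCE.

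By region, 6 of the 32 member peaks had their midpoint in the 5′ UTR (18.8%, Wilson 95% interval 8.89 to 35.3), 11 in the coding sequence (34.4%, 20.4 to 51.7) and 15 in the 3′ UTR (46.9%, 30.9 to 63.6). Over all 11892 peaks on coding transcripts these shares were 6.74%, 53.5% and 39.7%. All 6 of the 5′ UTR peaks were in Gas1, and the same place can count once in each list. Within 200 bases of the stop codon lay 5 of 32 member peaks (15.6%, 6.86 to 31.8), beside 23.2% of all peaks.

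GGAC was present on the RNA strand in 23 of 32 member peaks (71.9%, 54.6 to 84.4), with 16 of 23 in Gas1, 2 of 3 in Smo and 5 of 6 in Gli2. It was present in 51.9% of all 13549 peaks that could be searched (51.0 to 52.7). Member peaks were longer than the average peak, and in 100 bases around each midpoint the shares were 68.8% for members and 49.1% for all peaks. For GGACT the shares in this window were close, at 18.8% and 18.2%. Per 100 bases of whole peaks, GGAC occurred 0.742 times in member peaks and 0.679 times in all peaks. The member peaks repeat the same sites from list to list, so the interval is too narrow.

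Within Gas1, the 18 GGAC sites were spread unevenly. The 5′ UTR held 5, the coding sequence 9 and the 3′ UTR 4, or 0.914, 0.872 and 0.289 per 100 bases, while G and C made up 73.7%, 72.3% and 41.9% of the bases of these regions. Peaks of DMSO Pre covered 13 of the 18 sites, those of DMSO MCE 10, of DMSO Diff 14 and of rhein 13. All 4 distinct lists covered 8 sites, at least 1 list covered 17, and the remaining site was at base 2797 of the 3′ UTR. In the 5′ UTR rhein covered all 5 sites, against 3, 2 and 3 in the DMSO lists. In the coding sequence rhein covered 5 of 9, against 7, 6 and 8. So the rhein peaks took in more sites than each DMSO list in the 5′ UTR and fewer in the coding sequence. A site was counted only where all 4 of its letters lay under a peak. Peak edges cut through some sites, such as that at base 336 for the DMSO lists, 934 for rhein and 1159 for DMSO Diff. These counts, and the contrast in the coding sequence, therefore depend on that rule.

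Member peaks were compared between lists by at least 1 shared exonic base. Under rhein all 6 member peaks met a DMSO MCE peak, while 6 of the 12 DMSO MCE peaks met a rhein peak. Over all peaks placed on a transcript these shares were 53.2% and 32.0%. A shared base is more likely where peaks cover much of a transcript, as in Gas1. Here and between stages, the member shares are thus not like for like with those of all peaks. The 6 DMSO MCE peaks without a partner were the 2 of Smo and 4 of Gli2. With the Diff stage, 5 of 6 rhein Diff peaks met a DMSO Diff peak, all in Gas1, and 4 of 6 DMSO Diff peaks met a rhein Diff peak, beside 37.4% and 40.2% of all placed peaks. The 2 DMSO Diff peaks without a partner were the short ones near the 3′ end of Gas1.

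Between stages, 5 of 8 DMSO Pre peaks met a DMSO MCE peak and 5 of 12 the other way round, beside 45.0% and 25.1% of all placed peaks. For DMSO MCE and DMSO Diff these numbers were 5 of 12 and 4 of 6, beside 26.0% and 46.3%, and for DMSO Pre and DMSO Diff 6 of 8 and 5 of 6, beside 37.9% and 36.2%. Each peak that was shared between DMSO stages was a Gas1 peak. DMSO MCE had 5128 peaks, and with each list reduced to its 2824 highest peaks it kept 7 of its 12 member peaks, with 3 members still present.

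A wider list of 45 genes of the pathway gave peaks in 15 genes, or 33.3%, beside 16.6% of all protein-coding genes. By list, DMSO Pre held peaks for 8 of these genes, DMSO MCE for 11, DMSO Diff for 7 and rhein for 9. These are 17.8%, 24.4%, 15.6% and 20.0% of the list, beside 6.89%, 12.5%, 6.69% and 7.45% of all protein-coding genes. That base takes in genes whether or not their RNA is present in these cells. The higher share is therefore not read as a trait of the pathway. None of these peaks had an adjusted p below 1e-10, and the highest was that of Gsk3b, a kinase that phosphorylates Gli proteins, at rank 345 under rhein. The ligand genes Shh, Ihh and Dhh had no peak, and neither had Hhip, an inhibitor that binds the ligands.

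Peaks in all 4 distinct lists were found in 4 genes of the wider list. These were Csnk1a1 and Csnk1d, casein kinases that act on Smo and Gli proteins, and Spop and Cul3, which together form a ubiquitin ligase for Gli proteins. In the order DMSO Pre, DMSO MCE, DMSO Diff and rhein, Csnk1a1 had 2, 3, 4 and 4 peaks, and Spop had 1, 2, 2 and 3. Cul3 had 2, 3, 3 and 2, and Csnk1d had 2, 3, 1 and 1. The counts of each of these genes thus differed by at most 2 between lists.

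Peaks in 3 distinct lists were found in Csnk1g2, another casein kinase, and Prkar1a, a regulatory subunit of protein kinase A, which restrains the pathway. Csnk1g2 was without a peak in DMSO Pre, and Prkar1a in DMSO Diff. Peaks in DMSO lists only were found in 6 genes, Kif3a (a motor protein of the primary cilium, in DMSO Diff), Evc (a ciliary partner of Smo, in DMSO MCE), Csnk1g1 (in DMSO MCE), Csnk1g3 (in DMSO MCE and DMSO Diff), Dyrk2 (a kinase of Gli2, in DMSO Pre) and Ccnd1 (a cyclin and target of the pathway, in DMSO MCE). No gene of the wider list had peaks under rhein only. DMSO counts 3 lists and rhein 1, so that a gene has more chances to appear in DMSO only. For these patterns of the wider list no share over all genes with a peak is given here. Whether they differ from those of other genes was not tested, and nothing about the pathway is read from them. The 3 other genes with peaks, Gsk3b, Prkaca (a catalytic subunit of protein kinase A) and Ccnd2 (a cyclin), are named after their values were seen. Each had a peak under rhein and in 1 DMSO list.

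**Figure D5:**
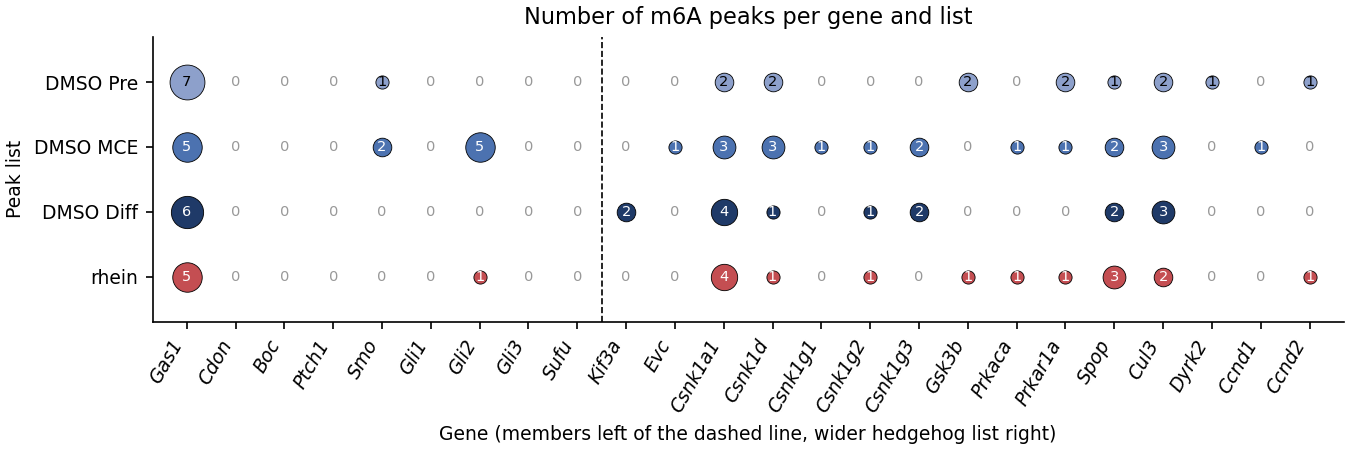
Number of m6A peaks for each member (left of the dashed line) and for each gene of the wider hedgehog list with a peak (right), by list on the y axis, with circles scaled by that number. Gas1 has between 5 and 7 peaks in each list, and 6 of the 9 members have 0 throughout.

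The genes with the pattern most like that of Gas1 were found by the rank of the highest peak, as log10 of the rank divided by the list length, over the 4 distinct lists and 4112 genes. They were Jun (distance 0.722), Gnas (0.795), Zfp36l2 (0.829), Cebpb (0.984) and Adamts1 (1.14). Their ranks were 44, 20, 30 and 7 for Jun, in the order of lists used above, and 9, 29, 16 and 19 for Adamts1. In Jun, Zfp36l2, Cebpb and Adamts1 the highest rhein peak had its midpoint in the coding sequence. In Gnas it was in the 5′ UTR of the transcript used, at bases 2131 to 2380 of 3903. Therefore 4 of the 5 genes most like Gas1 by rank did not share the place of its highest rhein peak. Jun and Cebpb have 1 exon, as Gas1 has, and the others have 2 to 13.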

How the data were processed

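MeRIP-seq gave 10 libraries, 1 IP and 1 input for each of 5 conditions. The authors trimmed reads, aligned them to mm10 with HISAT2 (2.1.0), removed duplicates with Picard (2.23.5) and called peaks with exomePeak2. The score is the 1 deposited value per peak, made by the authors with that caller under a fold-change header. Here it was read as an adjusted p-value on a negative log2 scale. Read depth per library and strand use are not given in the sources used here. Peaks were placed on GENCODE M21 transcripts, coding ones before others and longer ones before shorter. Shares have Wilson 95% intervals. Python 3.11.15, pandas 2.3.3, SciPy 1.17.1 and pysam 0.24.0 were used. In simulated data, 500 peaks were drawn from coding transcripts of the same annotation, and the region was right for 481. The gene was found for 500 of 500, a result that this design fixed in advance. Assignment between overlapping or neighbouring genes was not tested. Sequences came from RefSeq (GRCm38). Members and lists were chosen with earlier results of these data known. Of the wider list, 2 genes are not reported here. Named were all members, wider-list genes with peaks in at least 3 distinct lists or in rhein or DMSO lists only, and the 5 genes nearest to Gas1. Alternatives covered assignment, threshold, list length, overlap, annotation and motif.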

Additional observations from a re-analysis of the deposited data

Results flagged for a closer look

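Of 22 measures of the members and the wider list, 5 moved in opposite directions between rhein and DMSO at the MCE and the Diff stage. The difference between stages was not tested, as each condition is 1 list. Both rhein lists gave the same value for each of these measures, so that the opposite signs rest on the DMSO lists, of which DMSO MCE has 5128 peaks and DMSO Diff 2944.

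Exonic bases of Gas1 under peaks, as rhein minus DMSO, were 586 at the MCE stage and -114 at the Diff stage. For Gli2 the difference was -4 peaks and -500 bases at the MCE stage, and 1 peak and 75 bases at the Diff stage. The number of members with a peak differed by -1 and 1. In the wider list the number of genes with a peak differed by -2 and 2.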

How the results depend on the processing

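No paired analysis was possible because each condition has 1 IP and 1 input, and for the same reason no replicate could be left out. Of 119 recomputed values, 61 stayed within 1.5 times the reported count or inside the reported interval. These included all 8 with any exonic base counted, all 8 with strand ignored and all 4 region shares under RefSeq.

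With an adjusted p below 1e-10, member peaks fell to 2 for DMSO Pre, 3 for DMSO MCE and 1 for DMSO Diff. Members with a peak were then 1 in each list, Gas1 bases 1075 for DMSO Pre and 800 for DMSO Diff, and genes of the wider list 0 in each list. By the symbol of the lists, DMSO MCE had 7 member peaks, and the members named were 1 for DMSO Pre, 1 for DMSO MCE and 2 for DMSO Diff. With lists of equal length, DMSO MCE kept 7 member peaks and 5 genes of the wider list, and rhein kept 1 member, as the Gli2 peak was lost.

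Sharing by identical span was 0 in every pair. By an overlap of at least 50% of both peaks it was 3 each way for rhein MCE and DMSO MCE, and 2 each way for rhein Diff with DMSO Diff and for DMSO MCE with each other DMSO stage.

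Without Gas1, a choice made after seeing the data, member peaks were 1, 7, 0 and 1 in DMSO Pre, DMSO MCE, DMSO Diff and rhein, and members with a peak 1, 2, 0 and 1. Shared peaks were then 1 each way for rhein MCE and DMSO MCE and 0 in the other pairs. The 5′ UTR share was 0.0% and the 3′ UTR share 77.8%. GGACT was found in 34.4% of member peaks and 22.5% of all peaks, and the wider consensus (A, G or T, then A or G, then AC, then A, C or T) in 87.5% and 87.0%. In 100 bases around the midpoint these shares were 18.8% and 18.2% for GGACT, and 84.4% and 89.9% for the wider consensus. The lists hold no counts, so depth cannot be set against any of these values.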
